A study of Sus scrofa with 18 samples.

Results

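The genes described here are the interleukins, the chemokines and their receptors on the Affymetrix porcine array. They were taken by name: every probe set with a single gene symbol in the platform annotation that starts with IL, CCL, CXCL, CCR or CXCR followed by a digit. This gave 66 probe sets for 57 genes among 24123 probe sets. Of the 66 probe sets, 20, for 19 genes, exceeded an intensity of 100 on 3 or more of the 18 arrays. RNA was measured from the endometrium of pregnant Meishan gilts, a prolific Chinese breed, and Yorkshire gilts, a less prolific European breed. Both breeds were sampled on gestational day (GD) 15, 26 and 50, which makes 6 groups of 3 arrays: Meishan GD15, Meishan GD26, Meishan GD50, Yorkshire GD15, Yorkshire GD26 and Yorkshire GD50. The gilts were of similar age and had been mated with boars of their own breed. Within a group, every array was hybridized with RNA pooled from the same 2 gilts, 1 attachment site of each, and p-values therefore reflect how sites vary, without the variation from gilt to gilt.

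Interleukins and chemokines are secreted proteins through which immune cells, epithelia and the conceptus signal to each other. Chemokines draw leukocytes along a gradient and act on receptors with the same letters, CCR for the CC group and CXCR for the CXC group. Interleukins act on receptors of 2 or more chains, most of which signal through JAK kinases and STAT factors, while the receptors of the interleukin-1 family signal through MYD88 and NF-kB. In the pig, the elongating conceptus itself releases cytokines into the uterine lumen around attachment, and the placenta lies against the uterine epithelium without invading it.

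Values are log2 intensities as deposited, printed here on the linear scale, and group means are geometric. The words rose and fell are kept for changes with an adjusted p under 0.05 (limma, Benjamini-Hochberg, over the 10278 probe sets that passed the same intensity filter). Among the arrays, the 6 of Yorkshire GD26 and Yorkshire GD50 were unlike the other 12. Their spiked hybridization controls averaged 12.10 to 13.89 on the log2 scale against 10.51 to 11.80, and 7131 to 8036 of their probe sets exceeded 100 against 8373 to 8743. The median change of all tested probe sets from GD15 to GD26 was -0.46 in Yorkshire and -0.07 in Meishan (log2), and after centring each array on its median the Yorkshire value was -0.07. Of 5 trophoblast and placenta markers on the array, 4 passed the filter (GATA3, PAG6, PLET1 and PPAG3), and their list summed to 25 to 27 on the arrays of GD15 and to 27173 to 70822 on those of GD26 and GD50. The part of trophoblast RNA in any of the changes from GD15 to GD26 below was not tested. The list of 14 leukocyte markers summed to 435 to 2289 on all arrays but those of Yorkshire GD15, which reached 6247 to 11894. Most of that sum was S100A9, a neutrophil and stressed epithelium protein, at 11556, 8349.8 and 5769. The other leukocyte markers did not follow it as a set. In Yorkshire GD15, CD163 was at its lowest (31.6 to 34.9, and 97.3 or more elsewhere). CD8A was at its highest there (92.7 to 101), and CD2 and ITGB2 lay within the range of the other groups. CD3D, CD3E, CD4, CD79B, ITGAM, PTPRC and S100A8 were under 100 on every array. Of the defining endometrial genes, SPP1, UPTI and ACP5 passed the filter, and the steroid receptors ESR1 and PGR were under 100 on every array. The authors, with their own annotation, name ESR1 among the genes high on GD15 in both breeds. The probe set that the platform annotation gives for ESR1 was at 4.70 to 4.74 on that day. Epithelial markers passed in 7 of 7 cases. In bulk samples, fewer cells of a type and less RNA per cell cannot be told apart.

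**Figure D1:**
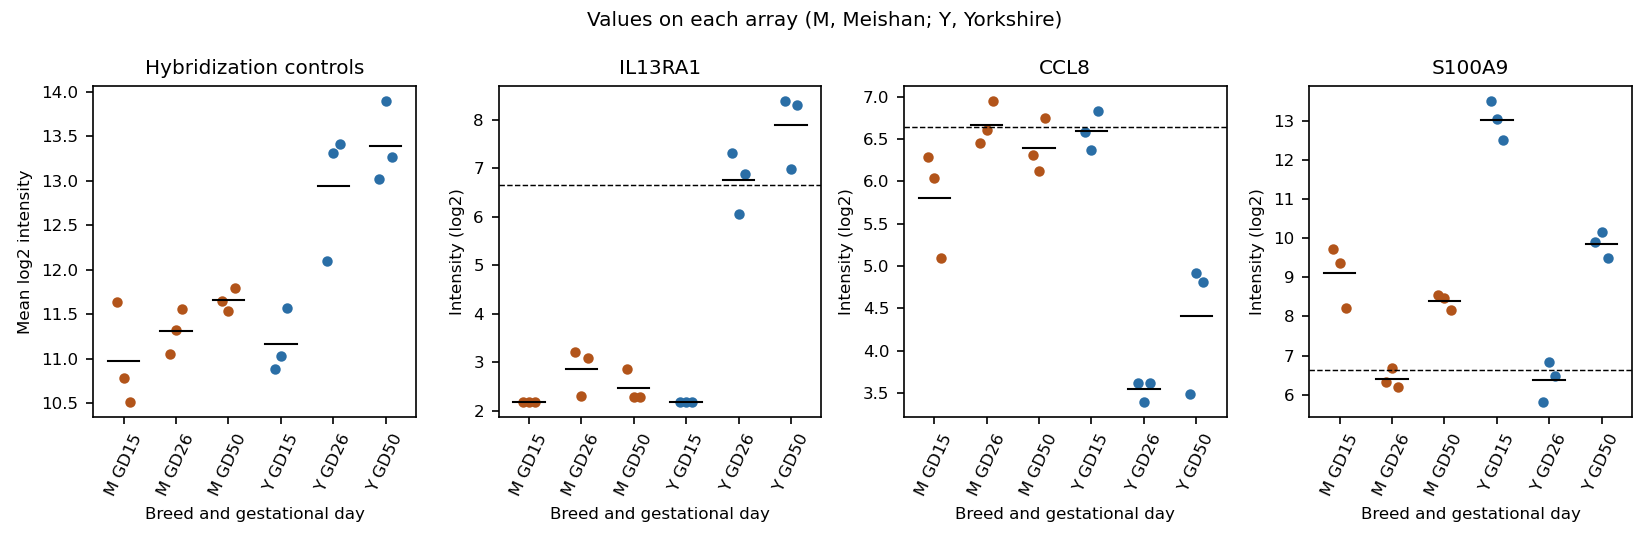
Values on each of the 18 arrays (log2, dots) with the group mean (bar) for the spiked hybridization controls, IL13RA1, CCL8 and the leukocyte marker S100A9. The dashed line is an intensity of 100. Yorkshire GD26 and Yorkshire GD50 are the brightest in the controls and in IL13RA1 and the dimmest in CCL8, while S100A9 is highest on the 3 Yorkshire GD15 arrays.

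Most of these genes gave little or no signal. The 20 probe sets past the filter were 30.3% of the 66, against 56.4% of all probe sets with a single symbol and 42.8% of all probe sets without controls. Another 6 probe sets exceeded 100 in 1 or 2 arrays (CXCL2, CXCL12, CXCL13, IL2RG, IL10RB and IL18BP) and 40 in none, 19 of which stayed below 10 on every array. CXCL16 and the brighter of the CXCL14 probe sets were above 100 on all 18 arrays. Of the ligands, 7 of 12 probe sets of CC chemokines and 4 of 10 of CXC chemokines passed. Of the interleukins, IL6, IL15 and IL18 passed, and the 11 probe sets of IL5, IL10, IL12A, IL12B, IL13, IL16, IL17A, IL17B and IL34 did not. IL1B reached at most 20.4 with one probe set and 7.95 with the other. CXCL8, a neutrophil chemokine, reached at most 9.89. Of the receptors, 5 of 14 probe sets of interleukin receptors (IL1R1, IL4R, IL11RA, IL13RA1 and IL27RA) and 1 of 7 of chemokine receptors (CXCR4) passed. IL1R1 and IL4R each had a second probe set that did not pass, at no more than 12.4 and 31.6.

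**Figure D2:**
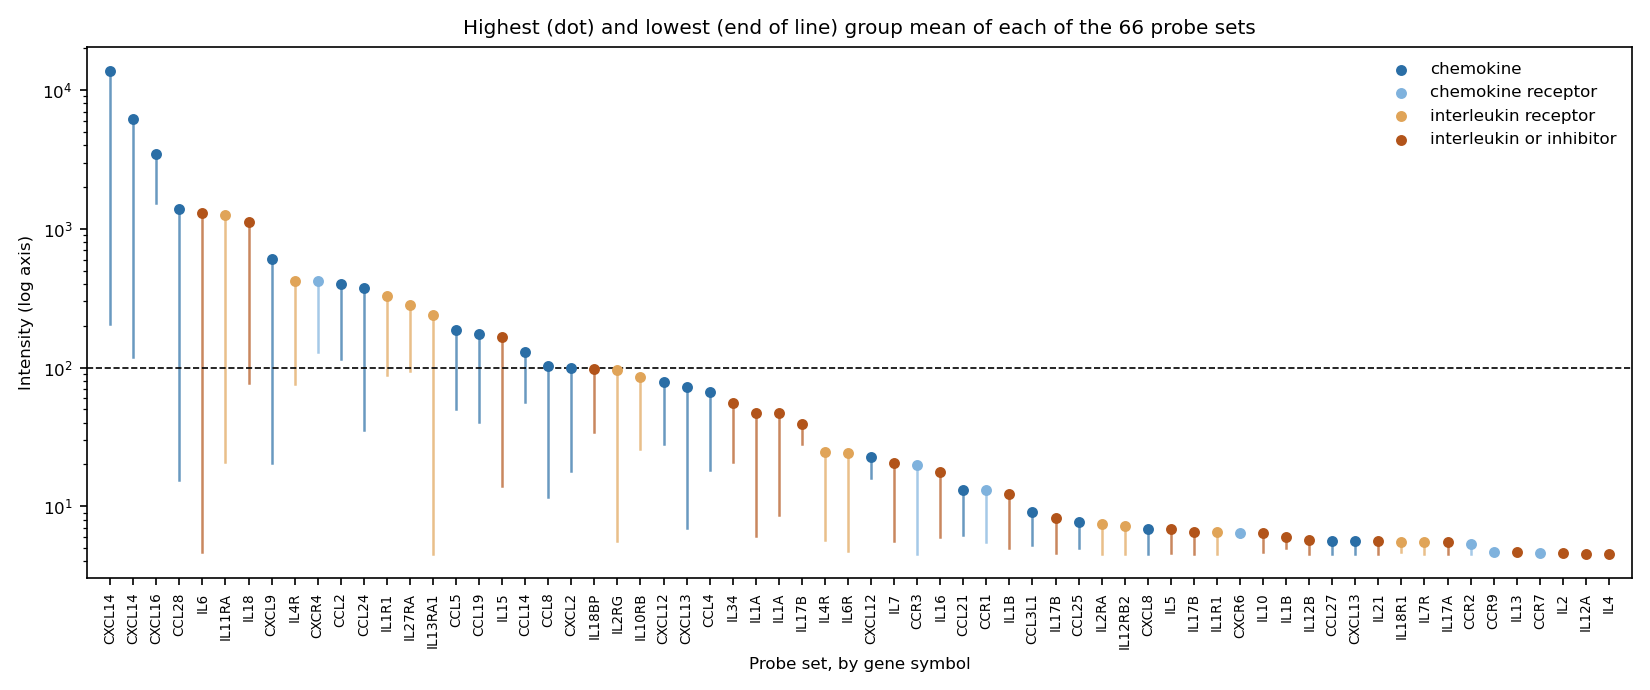
The 66 probe sets in order of their highest group mean (dot, geometric mean intensity on a log axis), with a line down to their lowest group mean and an intensity of 100 dashed. The CXCL14 group means span 205 to 13686 with the brighter probe set, and the probe sets on the right lay near the lowest intensity in every group.

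From GD15 to GD26, the interval in which the placenta attaches, 12 of the 20 probe sets passed the test in Meishan, where 49.8% of all tested probe sets did. Of these 8 rose and 4 fell, against 23.3% and 26.5% of all probe sets. In Yorkshire 16 passed, 5 up and 11 down, where 65.1% of all did (21.0% up and 44.1% down). After centring each array on its median, 14 passed in Yorkshire, 6 up and 8 down, where 60.0% of all did (29.5% up and 30.5% down). From GD26 to GD50, 6 probe sets passed in Meishan (2 up, 4 down), with a background of 18.5% (7.99% up and 10.5% down), and 6 passed in Yorkshire, all of them up, with a background of 13.0% (5.34% up and 7.62% down). Median centring gave 3 up and 4 down in Meishan for this interval, with 18.2% of all (8.08% up and 10.2% down). With the stricter Bonferroni adjustment and a fold of at least 2, 6 of the 20 passed in Meishan (6.95% of all) and 5 in Yorkshire (11.3%) from GD15 to GD26, and 0 in either breed (1.27% and 1.05%) from GD26 to GD50, where limma's unadjusted p was under 0.05 for 8 and 11. The median change of the 20 was 0.38 and -0.97 (log2) from GD15 to GD26 in Meishan and Yorkshire, beside -0.07 and -0.46 for all probe sets, and -0.25 and 0.80 from GD26 to GD50, beside -0.03 and -0.07. Taking the day with the highest group mean for each of the 20, Meishan had 8 on GD15, 8 on GD26 and 4 on GD50, and Yorkshire had 12, 2 and 6.

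**Figure D3:**
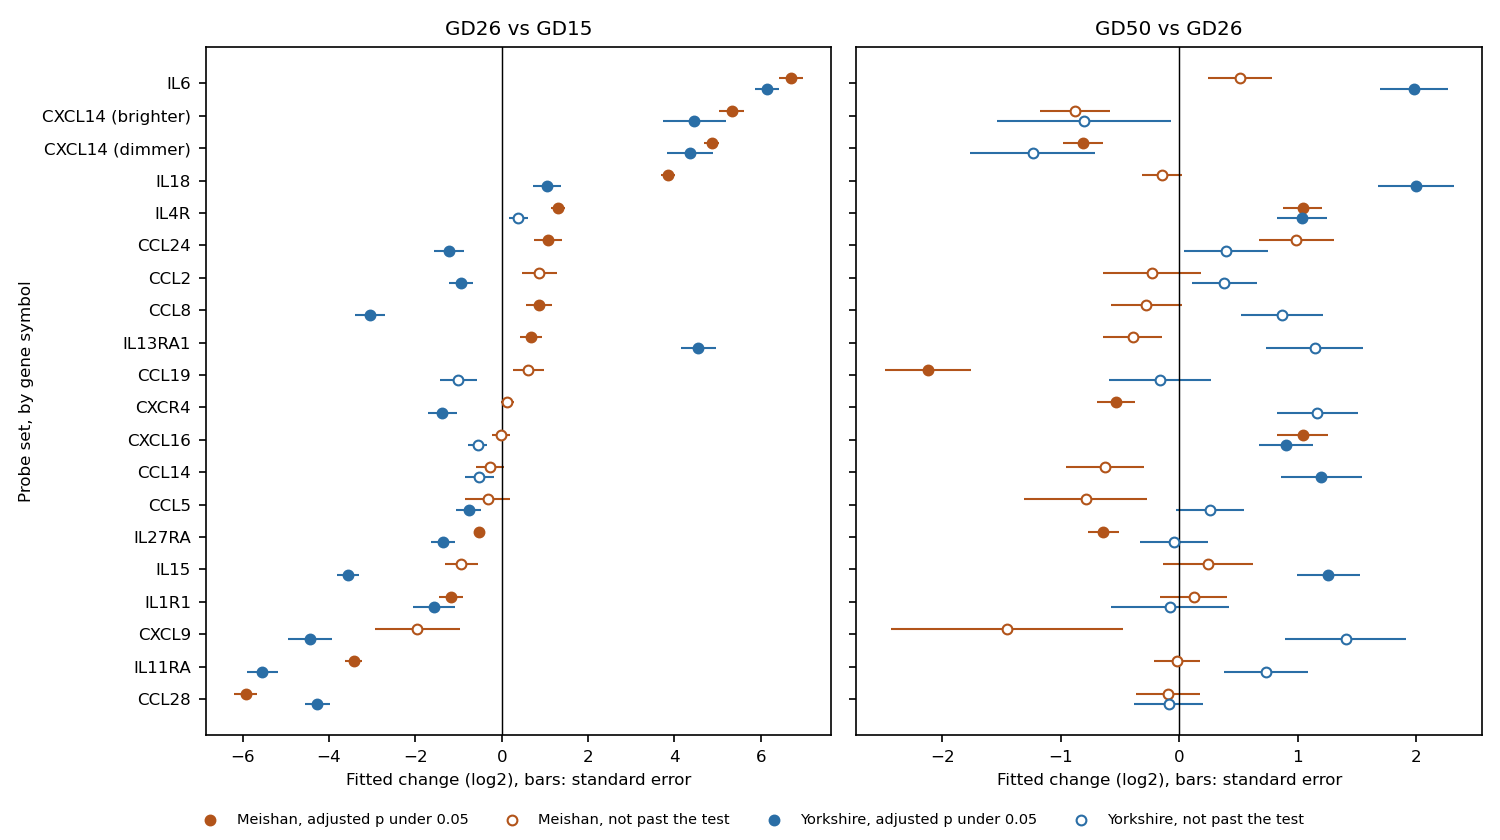
Fitted change (log2, with its standard error as bars) of the 20 probe sets from GD15 to GD26 (left) and from GD26 to GD50 (right) in Meishan and Yorkshire. Filled points passed the test. IL6 and both CXCL14 probe sets are far to the right and CCL28 and IL11RA far to the left in both breeds on the left panel, and the filled Yorkshire points on the right panel are all above 0.

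IL6, which acts through gp130 and STAT3, went from the lowest intensities to well above 100 between GD15 and GD26. It was near the lowest intensity on GD15, at 9.65, 4.54 and 4.86 in Meishan and 4.54, 4.92 and 4.56 in Yorkshire. On GD26 it stood at 668, 585 and 613 in Meishan and 478, 293 and 255 in Yorkshire, and on GD50 at 779, 1074 and 836 in Meishan and 1814, 1229 and 986 in Yorkshire. No array of GD15 came near any array of the later days in either breed. IL6 rose at least 6.21-fold in Meishan (adjusted p = 1.31e-07) and at least 3.29-fold in Yorkshire (adjusted p = 2.56e-07), both counted from an intensity of 100. It rose again by GD50 in Yorkshire, 3.95-fold (1.98 ± 0.28 SE on the log2 scale, adjusted p = 0.00228), while the Meishan change was 0.52 ± 0.27 (adjusted p = 0.227). The trophoblast list changed over the same interval as IL6 in both breeds, and its part in the rise was not tested.

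IL18, an interleukin-1 family ligand that caspase 1 releases in active form, also rose between GD15 and GD26. On GD15 it measured 80.6, 94.7 and 60.4 in Meishan and 94.4, 92.4 and 132 in Yorkshire. Meishan measured 1100.1, 1170.2 and 1077 on GD26 and 967, 1065 and 994 on GD50, all above its GD15 arrays. Yorkshire was at 329, 195 and 158 on GD26 and at 752, 1227 and 699 on GD50. The Meishan rise was at least 11.2-fold (adjusted p = 2.23e-07), and the next Meishan change was -0.15 ± 0.17 (adjusted p = 0.606). Yorkshire rose in 2 steps, 2.06-fold (adjusted p = 0.0167) and then 3.99-fold (adjusted p = 0.00391). The first of these was lost without Yorkshire GD15 replicate 1 or 2 (adjusted p = 0.0573 and 0.0591). CASP1, which cleaves the IL18 precursor, fell in Yorkshire from GD15 to GD26 (-2.53 ± 0.36, adjusted p = 0.000232). As with IL6, the trophoblast list changed from GD15 to GD26, and its part in the IL18 rise was not tested.

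IL15, which maintains natural killer cells through the common gamma chain, went the other way. In Yorkshire it measured 203, 134 and 169 on GD15, 10.8, 19.97 and 13.0 on GD26 and 32.0, 40.3 and 29.7 on GD50. The groups of GD15 and GD26 did not overlap, and IL15 fell at least 1.66-fold from GD15 to GD26 (adjusted p = 4.49e-06). It rose from GD26 to GD50 (1.26 ± 0.26 on the log2 scale, adjusted p = 0.0144), with both groups under 100, and with a floor of 50 no change was left (adjusted p = 1). In Meishan it measured 69.6, 136 and 54.4 on GD15, 30.1, 43.4 and 56.0 on GD26 and 50.1, 34.0 and 71.0 on GD50. There the first 2 days overlapped and the change was -0.94 ± 0.38 (adjusted p = 0.0669), which passed without Meishan GD15 replicate 3 (-1.22, adjusted p = 0.0336).

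Among the receptors, IL11RA, the binding chain for IL11, had the largest fall. It measured 1069, 1591 and 1158 in Meishan GD15 and 928, 1104 and 917 in Yorkshire GD15. On GD26 Meishan was at 99.4, 143 and 110.4 and Yorkshire at 33.6, 14.0 and 19.6, and on GD50 Meishan was at 102, 120.0 and 124 and Yorkshire at 46.5, 40.6 and 22.3. All arrays of GD15 were above all later arrays. IL11RA fell 10.8-fold in Meishan (adjusted p = 1.22e-06) and at least 9.79-fold in Yorkshire (adjusted p = 1.74e-06), and did not pass the test from GD26 to GD50 in either breed (adjusted p = 0.967 and 0.210).

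IL13RA1, which joins IL4R to form a receptor for IL4 and IL13, was measured above 100 only in Yorkshire. Its Yorkshire values were 4.56, 4.57 and 4.56 on GD15, 159, 66.5 and 117 on GD26 and 334, 127 and 317 on GD50. Meishan values were 4.56, 4.53 and 4.56 on GD15, 9.30, 4.93 and 8.51 on GD26 and 7.29, 4.87 and 4.87 on GD50. The rise from GD15 to GD26 in Yorkshire was at least 1.07-fold (adjusted p = 1.43e-05), a low bound because the GD26 mean was only just above 100. IL13RA1 passed the filter only through Yorkshire GD26 and GD50 arrays, where it was high, so its tests are not independent of the filter. The 6 arrays of these groups, of which 5 exceeded 100 for IL13RA1, are the 6 with the bright hybridization controls, and the part of this in the result was not tested. In Meishan IL13RA1 passed the test from GD15 to GD26 as well (0.68 ± 0.25, adjusted p = 0.0455) with both groups under 100, and this call was lost with a floor of 50 under all values and without any one of 7 of the 9 Meishan arrays.

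IL4R, the chain that IL4 and IL13 share, rose over both intervals in Meishan and over the second in Yorkshire. Meishan measured 77.4, 75.9 and 76.2 on GD15, 150.1, 238 and 189 on GD26 and 393, 388 and 385 on GD50. Yorkshire measured 157, 158 and 157, then 149, 255 and 229, then 448, 438 and 386. It rose at least 1.89-fold (adjusted p = 0.000189) and then 2.06-fold (adjusted p = 0.00275) in Meishan. In Yorkshire the first step was 0.39 ± 0.21 (adjusted p = 0.133) and the second a rise of 2.06-fold (adjusted p = 0.0128). The first Yorkshire step passed the test after median centring (0.78, adjusted p = 0.0230) and without Yorkshire GD26 replicate 1 (0.62, adjusted p = 0.00744).

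IL1R1, the signalling receptor of IL1A and IL1B, fell after GD15. Its values were 236, 273 and 535 on GD15, 147, 141 and 145 on GD26 and 181, 123 and 174 on GD50 in Meishan, and 258, 294 and 275, then 86.5, 84.6 and 109.6, then 147, 32.5 and 142 in Yorkshire. The GD15 arrays lay above the GD26 arrays in both breeds. The fall was 2.25-fold in Meishan (adjusted p = 0.00743) and 2.96-fold in Yorkshire (adjusted p = 0.0198). The Yorkshire call was lost after quantile normalization (adjusted p = 0.0690) and without Yorkshire GD15 replicate 2 or 3 or Yorkshire GD26 replicate 2 (adjusted p = 0.0556, 0.0506 and 0.0539). IL27RA, the IL27 receptor chain, fell 1.43-fold and then 1.56-fold in Meishan (adjusted p = 0.00897 and 0.00952) and 2.57-fold from GD15 to GD26 in Yorkshire (adjusted p = 0.00238), from group means of 284 and 252 on GD15 to 127 and 94.8 on GD50. Both Meishan calls of IL27RA were lost in 1 fit over both breeds (adjusted p = 0.0738 and 0.0684).

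CCL28, a chemokine of mucosal epithelia that attracts plasma cells, had the largest fall of the CC chemokines. It measured 1289, 1353 and 1546 in Meishan GD15 and 333, 449.9 and 217 in Yorkshire GD15. All 12 later arrays were between 13.0 and 34.3, so CCL28 passed the filter through its GD15 arrays alone. The fall from GD15 to GD26 was at least 13.9-fold in Meishan (adjusted p = 2.65e-07) and at least 3.19-fold in Yorkshire (adjusted p = 2.61e-06). On GD50 Meishan measured 18.03, 18.5 and 29.0 and Yorkshire 20.7, 13.8 and 13.0, at which level no further change can be read.

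CCL8, a monocyte chemoattractant, was close to 100 at its highest, and only 3 arrays exceeded that. Meishan measured 78.0, 65.7 and 34.2 on GD15, 88.0, 97.2 and 124 on GD26 and 79.6, 69.5 and 107 on GD50. Yorkshire measured 95.8, 82.7 and 114 on GD15, 12.3, 10.5 and 12.3 on GD26 and 11.3, 30.2 and 28.1 on GD50. The Yorkshire GD26 and GD50 arrays lay below all others. None of the 3 arrays above 100 was among them, so tests against these groups are not independent of the filter. CCL8 fell in Yorkshire from GD15 to GD26 (adjusted p = 5.97e-05). The fitted change was -3.05 ± 0.35 on the log2 scale and -0.95 with a floor of 50, and with a GD15 mean of 96.7 no fold is given. In Meishan it rose at least 1.02-fold (0.86 ± 0.30, adjusted p = 0.0378), a call that was lost without any one of the Meishan GD26 arrays, Meishan GD15 replicate 2 or 3, or Meishan GD50 replicate 1 (adjusted p = 0.0512 to 0.115).

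CCL24, an eotaxin that acts on eosinophils, had opposite courses in the breeds. Its group means in Meishan were 90.2, 189 and 375 on GD15, GD26 and GD50, and in Yorkshire 82.9, 35.5 and 46.6. It rose 2.10-fold in Meishan from GD15 to GD26 (adjusted p = 0.0194). In Yorkshire it fell (adjusted p = 0.0131), with both group means under 100 and so with no fold, and with a floor of 50 under all values the change was -0.73 on the log2 scale. The Meishan call was lost without Meishan GD26 replicate 3 (adjusted p = 0.0679), and the Yorkshire call after median centring (adjusted p = 0.0654) and without Yorkshire GD15 replicate 1 (adjusted p = 0.0530).

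CCL19, which guides T cells and dendritic cells through CCR7, fell late in Meishan. It measured 149.7, 143 and 68.8 on GD15, 119, 198 and 228 on GD26 and 30.1, 38.0 and 56.6 on GD50 in Meishan, and 156, 81.8 and 75.9, then 43.1, 57.8 and 47.7, then 21.6, 63.1 and 62.4 in Yorkshire. The Meishan groups of GD26 and GD50 did not overlap, and the fall between them was at least 1.75-fold (adjusted p = 0.00408). In Yorkshire the change from GD15 to GD26 was -1.01 ± 0.43 (adjusted p = 0.0640). CCL14 lay between 35.8 and 163 on all arrays and rose at least 1.29-fold in Yorkshire from GD26 to GD50 (adjusted p = 0.0478). This call was lost after median centring (adjusted p = 0.0505) and without any one of the Yorkshire GD15 or GD50 arrays or of Yorkshire GD26 replicates 1 and 3 (adjusted p = 0.0580 to 0.129). The remaining CC chemokines past the filter, the monocyte chemoattractant CCL2 and the T cell chemoattractant CCL5, fell less than 2-fold in Yorkshire from GD15 to GD26 (adjusted p = 0.0136 and 0.0401).

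CXCL14, a chemokine made by many epithelia, rose the most of the chemokines. With its brighter probe set it measured 323, 219 and 122 in Meishan GD15, 7494, 8294 and 8922 in Meishan GD26 and 4259.8, 4809.9 and 4312 in Meishan GD50. Yorkshire GD15 was uneven, at 160.3, 2147 and 695. Yorkshire GD26 was at 13212, 13903 and 13956 and Yorkshire GD50 at 10536, 6339 and 7211. It rose 40.1-fold in Meishan (adjusted p = 1.02e-06) and 22.1-fold in Yorkshire (adjusted p = 0.000614) from GD15 to GD26. The dimmer probe set gave 29.0-fold and 20.5-fold, and its Yorkshire GD15 arrays were uneven in the same order, at 135, 826 and 247. From GD26 to GD50 in Meishan the change was -0.88 ± 0.29 with the brighter probe set (adjusted p = 0.0674), and the dimmer one fell 1.75-fold (adjusted p = 0.0104), a call lost in 1 fit over both breeds (adjusted p = 0.236). The Yorkshire change of the dimmer probe set was -1.24 ± 0.53 (adjusted p = 0.157, and 0.0447 in 1 fit over both breeds). The trophoblast list changed over the same days as CXCL14, and its part in the rise was not tested.

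CXCL9, an interferon-gamma induced chemokine for T cells, was above 100 on GD15 arrays only and passed the filter through them alone. Yorkshire GD15 was at 379, 456 and 1297 and Meishan GD15 at 649, 534 and 29.9. All later arrays were under 100, at 33.4, 61.6 and 86.2 in Meishan GD26, 21.4, 19.0 and 21.4 in Meishan GD50, 21.4, 53.8 and 19.0 in Yorkshire GD26 and 74.8, 91.7 and 59.1 in Yorkshire GD50. It fell at least 6.07-fold in Yorkshire (adjusted p = 6.60e-05). In Meishan the change was -1.95 ± 0.98 (adjusted p = 0.124), and -3.39 without Meishan GD15 replicate 3, the array at 29.9 (adjusted p = 0.000134). On the same array the leukocyte list summed to 679.8 against 1415 and 1245, with S100A9 (298) and the T cell marker CD2 (19.2) the lowest of the group and the leukocyte integrin ITGB2 (121) the highest. Whether leukocyte content had a part in the CXCL9 values was not tested.

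CXCL16, a membrane-bound chemokine of epithelia and macrophages, lay between 1102 and 4081 on the 18 arrays, with group means from 1532 to 3439. It rose 2.06-fold from GD26 to GD50 in Meishan (adjusted p = 0.0100) and 1.87-fold in Yorkshire (adjusted p = 0.0307), the latter with losses of the call when 1 array was left out (adjusted p up to 0.0849). CXCR4, the receptor of CXCL12 and the single chemokine receptor past the filter, measured 389.6, 385 and 372 in Meishan GD15, 379.9, 455 and 425 in Meishan GD26 and 289, 238 and 351 in Meishan GD50. Yorkshire measured 397, 299 and 324, then 185, 119 and 99.3, then 309, 440.1 and 182. CXCR4 fell 2.60-fold in Yorkshire from GD15 to GD26 (adjusted p = 0.00578). The change from GD26 to GD50 was a fall of 1.45-fold in Meishan (adjusted p = 0.0449) and 1.17 ± 0.34 on the log2 scale in Yorkshire (adjusted p = 0.0522). The Meishan call was lost with the replicate number as a block (adjusted p = 0.0694) and without any one of 7 of the 9 Meishan arrays.

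**Figure D4:**
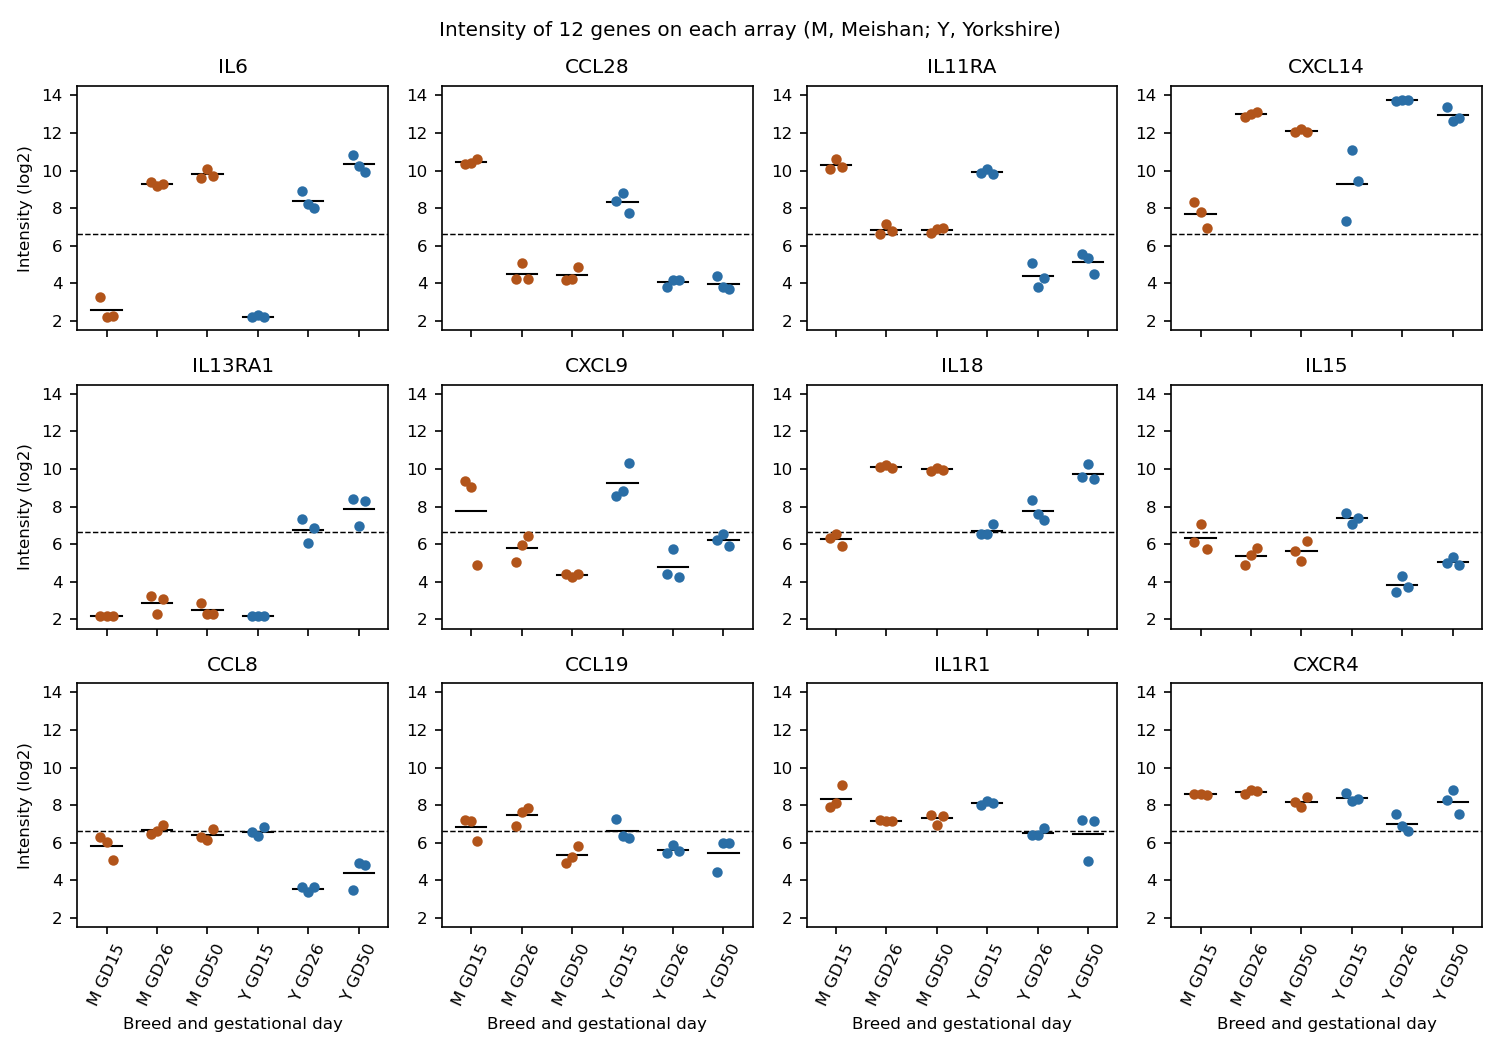
Log2 intensity on each array (dots) and group mean (bar) of the 12 genes with the largest fitted change within a breed, with an intensity of 100 dashed. IL6, CXCL14 and IL18 are low on GD15 and high later, CCL28 and IL11RA are the reverse, and IL13RA1 is above the dashed line only in Yorkshire GD26 and GD50.

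Of the receptors and ligands that pair with the genes above, picked after their values were seen, several did not pass the filter. IL6R, the binding receptor of IL6, was at most 31.2. IL18R1 was at most 7.59 and the IL18 inhibitor IL18BP at most 119.5. CXCR6, the receptor of CXCL16, was at most 7.95, and CCR7, CCR2 and CCR3 were at most 4.77, 7.35 and 25.9. IL4 and IL13, the ligands of IL4R and IL13RA1, were at most 4.53 and 5.01. CXCL12, the ligand of CXCR4, passed 100 on 1 array only, a Meishan GD15 array at 125. IL2RG, the common gamma chain of the IL15 receptor, lay at 4.99 to 11.4 on all Meishan and Yorkshire GD15 arrays, at 21.1, 39.0 and 22.1 in Yorkshire GD26 and at 90.2, 78.3 and 127 in Yorkshire GD50. Yorkshire GD26 and GD50 are the groups with the bright hybridization controls, and the part of this in the IL2RG values was not tested. CXCL13, a B cell chemokine, was at 6.68 to 7.90 on the GD15 arrays of Meishan and on all Yorkshire arrays, and at 40.0 to 114 on the 6 later Meishan arrays. Its second probe set was at 4.53 to 8.10 on all arrays. Probe sets differ in how strongly they bind, so a low value is not a measured absence and levels of different genes are not set against each other here.

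The breeds differed in the course from GD15 to GD26. For 12 of the 20 probe sets the Yorkshire change minus the Meishan change passed the test in 1 fit over all 18 arrays, where 35.9% of all probe sets did. It was below 0 for 10 of them (CCL2, CCL8, CCL19, CCL24, CXCR4, IL4R, IL11RA, IL15, IL18 and IL27RA) and above 0 for CCL28 and IL13RA1, with 26.4% of all probe sets below and 9.53% above. The median difference of all probe sets was -0.40, and after median centring 8 of the 20 passed, 6 below 0 and 2 above, where 27.9% of all did (13.3% below and 14.6% above). CCL2, CCL19, IL27RA and IL4R no longer passed then (adjusted p = 0.147, 0.183 and 0.186 for the last 3). IL18, which was above 60 on every array, differed by -2.81 ± 0.37 (adjusted p = 6.12e-05). CCL8 differed by -3.92 ± 0.49 (adjusted p = 3.26e-05), IL15 by -2.62 ± 0.49 (adjusted p = 0.00100) and IL11RA by -2.12 ± 0.42 (adjusted p = 0.00161), but these sizes rest on Yorkshire GD26 values far under 100. With a floor of 50 they were -1.63, -1.11 and -0.86, all past the test. IL13RA1 differed by 3.87 ± 0.51 (adjusted p = 5.39e-05), from values that were under 10 in 3 of the 4 groups, and with a floor of 50 under all values the difference was 1.10 (adjusted p = 0.0541). From GD26 to GD50, CXCR4 (1.70 ± 0.39, adjusted p = 0.0198) and IL18 (2.14 ± 0.37, adjusted p = 0.00387) passed, both above 0, with a background of 4.39% (2.08% above and 2.31% below). Under Bonferroni with a fold of at least 2, 3 passed in the first interval (3.25% of all) and 0 in the second (0.399%), where limma's unadjusted p was under 0.05 for 8. Both comparisons use the GD26 groups, so the opposite signs of CXCR4 and IL18 in them rest on the same arrays.

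**Figure D5:**
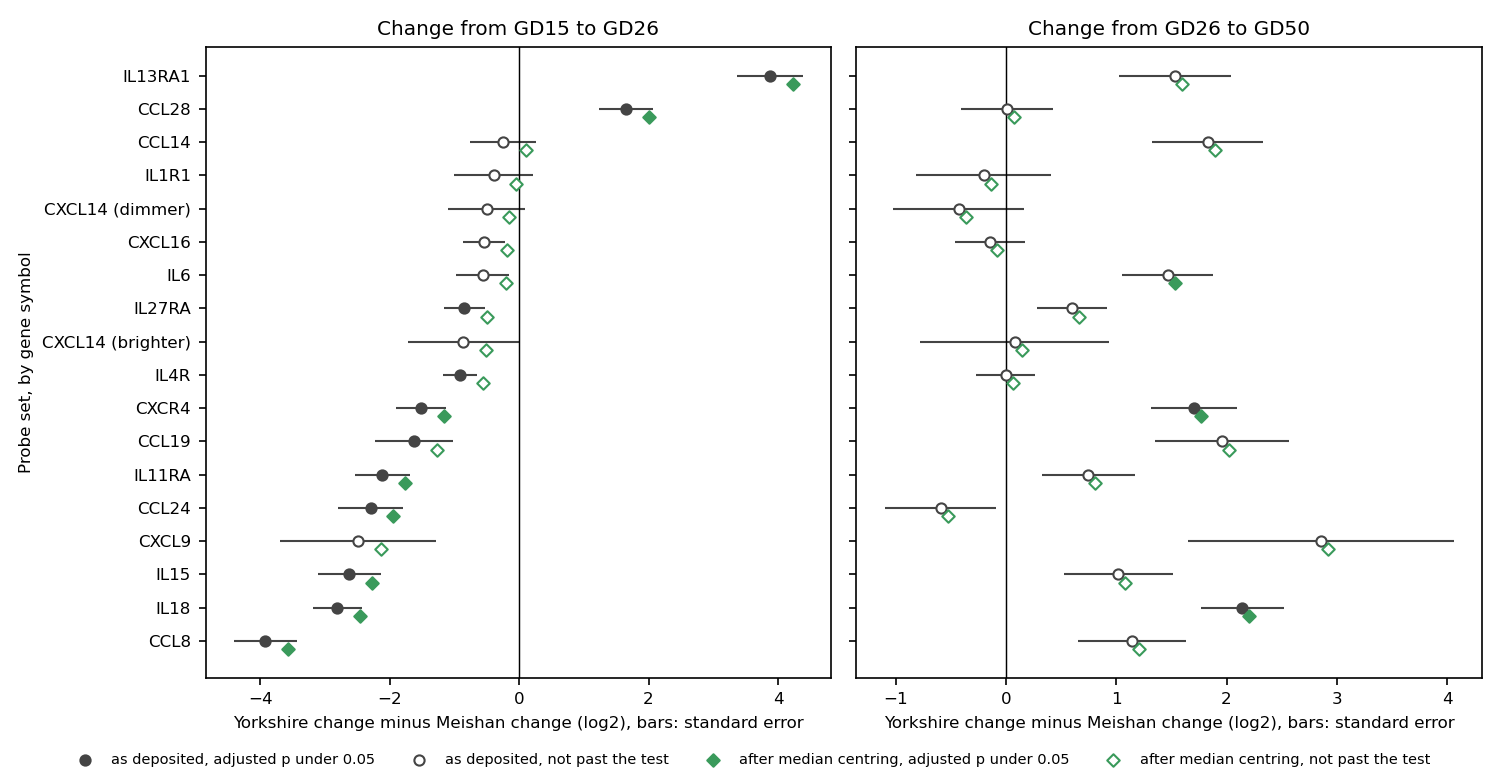
Yorkshire change minus Meishan change (log2) of the 18 named probe sets from GD15 to GD26 (left) and from GD26 to GD50 (right). Circles are the values as deposited with their standard error, diamonds are the values after median centring, and filled marks passed the test. On the left panel IL13RA1 lies highest and CCL8, IL18 and IL15 lowest under both scalings, with CCL8, IL15 and IL13RA1 resting on values far under 100.

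On single days, the fewest breed differences were called on GD15, both among the 20 probe sets and among all probe sets. Yorkshire GD26 and GD50 are the groups with the bright hybridization controls, and the part of this in the counts was not tested. On GD15, 3 of the 20 probe sets differed, where 10.1% of all did (5.18% higher and 4.92% lower in Yorkshire). CCL28 was 4.36-fold lower in Yorkshire (adjusted p = 0.000155), IL4R at least 1.57-fold higher (adjusted p = 0.00156) and CXCL16 1.75-fold higher (adjusted p = 0.0296). The CXCL16 call was lost without Meishan GD15 replicate 2 or 3 or Yorkshire GD15 replicate 2 or 3 (adjusted p = 0.0666 to 0.162). On GD26, 12 differed, with 52.9% of all (11.8% higher and 41.1% lower), of which IL13RA1 was higher in Yorkshire and 11 were lower. IL18 was 5.15-fold lower (adjusted p = 4.66e-06), IL11RA at least 1.16-fold lower (adjusted p = 9.95e-06) and CXCR4 3.23-fold lower (adjusted p = 0.000145). On GD50, 7 differed, with 56.1% of all (11.9% higher and 44.1% lower). IL13RA1, CCL5 and CCL14 were higher in Yorkshire, and CCL2, CCL8, CCL24 and IL11RA were lower, with CCL24 at least 3.75-fold lower (adjusted p = 8.15e-06). Under Bonferroni with a fold of at least 2 the counts were 1, 4 and 2 on GD15, GD26 and GD50 (1.82%, 7.59% and 8.14% of all). After median centring 3 of 12 on GD26 were higher in Yorkshire, where 41.7% of all differed (20.1% higher and 21.6% lower), and 5 of 8 on GD50, where 43.4% did (21.8% higher and 21.6% lower).

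Of the genes that carry these signals inside the cell, 16 of the JAK and STAT list were on the array and 7 passed the filter. From GD15 to GD26, 1 rose and 3 fell in Meishan and 4 fell in Yorkshire, with a background of 49.8% and 65.1% of all probe sets, which holds for the lists that follow as well. STAT3 fell in both breeds (-1.22 ± 0.14, adjusted p = 0.000119 in Meishan, and -1.39 ± 0.22, adjusted p = 0.000494 in Yorkshire), and so did STAT5B (-0.98 in Meishan and at least 4.55-fold in Yorkshire). From GD26 to GD50, with a background of 18.5% and 13.0%, 2 rose in Meishan (STAT3 and STAT5B) and none of the 7 passed in Yorkshire with limma, where 2 had an unadjusted p under 0.05 and STAT2 came nearest with -0.75 ± 0.23 (adjusted p = 0.0660). Of the Toll, interleukin-1 receptor and NF-kB list 11 were on the array and 7 passed the filter. MYD88, the adaptor of the IL1 and IL18 receptors, rose in Meishan (0.51 ± 0.18, adjusted p = 0.0425, all arrays under 100) and in Yorkshire (1.41 ± 0.39, adjusted p = 0.0108, both group means under 100), with 3 up and 1 down of the list in Meishan and 2 up and 2 down in Yorkshire. From GD26 to GD50, 1 of the 7, NFKBIA, fell in Meishan. Of other cytokines and receptors outside the naming rule 8 of 13 passed the filter, with 4 up and 2 down in Meishan and 3 up and 2 down in Yorkshire from GD15 to GD26. The chemokine AMCF-II, on this list, was at 2308 to 7203 over all arrays and fell in both breeds in that interval. LIF, a relative of IL6 that acts through the same gp130 chain, rose by 0.90 ± 0.18 in Meishan (adjusted p = 0.00273, all arrays under 100) and at least 3.52-fold in Yorkshire (adjusted p = 1.89e-06), where its GD15 arrays were at 8.54 to 16.9. SIGIRR, an inhibitory receptor of the interleukin-1 family, rose over both intervals in both breeds, and in the second it was the single gene of that list to pass in either breed. LIF and MYD88 passed the filter only through Yorkshire GD26 and GD50 arrays, where they were high. Their Yorkshire tests from GD15 to GD26 are therefore not independent of the filter. These arrays are also the 6 with the bright hybridization controls, and the part of this in both genes was not tested.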

How the data were processed

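RNA pools of porcine endometrium were measured on 18 arrays. According to the authors, the deposited log2 intensities came from the GCRMA and affy packages of R (background correction, normalization, summarization). The submitters' notes also name RMA, versions are not given in the sources used here, and raw intensity files were not used. Of 24123 probe sets, 124 controls were left out. Genes were named by the platform annotation. Probe sets with several symbols (2 fitted the naming rule) were left out.

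Probe sets above an intensity of 100 in at least 3 arrays (10278) were tested by limma's lmFit and eBayes (version 3.58.1, R version 4.3.3). A probe set could pass this filter through only the groups where it was high. This held for IL13RA1 (Yorkshire GD26 and GD50), for CCL28, CXCL9 and IL15 (GD15) and for IL6 (GD26 and GD50). CCL5, CCL8, CCL14, CCL19, CCL24, IL4R, IL11RA and IL18 also had arrays above 100 in some groups and none in others. Among the listed genes, LIF and MYD88 were above 100 only in Yorkshire GD26 and GD50. Tests of all these genes between groups with arrays above 100 and groups without are not independent of the filter. Changes between days came from separate models of the breeds, and breed comparisons from a model of all 6 groups. The adjusted p is Benjamini-Hochberg over all 10278. The filter came before the fit because values near the lowest intensity with almost no spread otherwise set the prior of eBayes (prior degrees of freedom 3.41 and 3.35 with the filter, 0.547 and 0.618 without). Where all arrays of the dimmer group were at or under 100, a fold is the brighter geometric mean over 100. Named genes passed the test with a fold of at least 2 in at least 1 of the 4 comparisons within breeds (17 genes) and the 12 with the largest fitted change are given array by array. CCL2, CCL5 and the genes under the filter were named outside this rule, after their values were seen. The members and the lists were chosen with earlier results of these data known.

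Same-numbered arrays of Meishan GD26 and GD50 deviated together (correlations 0.136 to 0.312 for the 3 pairs). For Meishan GD26 and Yorkshire GD26 the correlations were above 0 but small (0.0335 to 0.259), and for the other groups compared not all were above 0. Each group came from its own gilts, so a shared number does not stand for a shared gilt. The fits were tested on simulated data. For Meishan GD26 versus GD15, 49% of planted changes of 1 on the log2 scale and 91% of those of 2 were recovered. There, 4 probe sets without a planted change were called. A change near 1 that did not pass the test could therefore have been missed. The alternatives were other filters, filtering after the fit, median centring, quantile normalization, a floor of 50, a mean-variance trend, a replicate block, 1 fit over both breeds, Bonferroni adjustment with a fold of at least 2, and leaving out each array. Taking Yorkshire GD26 from array 1 alone was chosen after seeing the data. The number of arrays limits the precision.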

Additional observations from a re-analysis of the deposited data

Results flagged for a closer look

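The change from GD15 to GD26 differed between the breeds for 11 named genes, by limma's test of the difference itself. With the Meishan change subtracted from that of Yorkshire (log2), the value was -3.92 for CCL8, -2.81 for IL18, -2.62 for IL15, -2.29 for CCL24, -2.12 for IL11RA, -1.63 for CCL19, -1.51 for CXCR4, -0.91 for IL4R and -0.85 for IL27RA, and it was 1.66 for CCL28 and 3.87 for IL13RA1. CCL24 and CCL8 passed the test in opposite directions within the breeds, but not all of these calls were stable. The CCL8 rise in Meishan was lost in 10 of the alternatives other than Bonferroni, and its fall in Yorkshire in 0. For CCL24 the fall in Yorkshire was lost in 4 and the rise in Meishan in 2. From GD26 to GD50 the difference was 1.70 for CXCR4 and 2.14 for IL18. Yorkshire GD26 and Yorkshire GD50 are also the groups with the brighter hybridization controls, and the part of this in the differences was not tested. The differences of IL27RA and CCL19 were the least stable, with IL27RA lost in 20 of the alternatives and CCL19 in 16, the replicate block among them (adjusted p = 0.0558). Leaving out 1 array gave an adjusted p of up to 0.120 for IL27RA and 0.123 for CCL19. With a floor of 50 the difference of IL13RA1 was 1.10 (adjusted p = 0.0541), and those of CCL8, IL15 and IL11RA were -1.63, -1.11 and -0.86. With Yorkshire GD26 taken from array 1 alone, where the spread comes from the other groups, the differences from GD15 to GD26 were -1.82 for CCL19, 1.40 for CCL28, -1.002 for CXCR4 and -0.51 for IL27RA, none past the test (adjusted p = 0.109, 0.0710, 0.117 and 0.345), and that of CXCR4 from GD26 to GD50 was 1.19 (adjusted p = 0.119). A single array gives less power, so these p-values say little about stability.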

How the results depend on the processing

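No single-gene result changed its direction past the test under any of the alternatives run. Of the calls for named probe sets, 22 of 38 within breeds, 6 of 13 differences between the breeds' changes and 13 of 19 differences on single days were kept under every alternative other than Bonferroni. Bonferroni adjustment with a fold of at least 2 left 6, 0, 5 and 0 of the 20 probe sets for Meishan GD26 versus GD15, Meishan GD50 versus GD26, Yorkshire GD26 versus GD15 and Yorkshire GD50 versus GD26, 3 and 0 for the breed differences in the 2 changes, and 1, 4 and 2 for Yorkshire versus Meishan on GD15, GD26 and GD50. Beside these counts of 0, limma with Benjamini-Hochberg gave 6, 6 and 2. One fit over both breeds left 3 for Meishan GD50 versus GD26. For the breed difference from GD26 to GD50, a floor of 50 gave 5 instead of 2. A floor of 50 gave 5 instead of 3 on GD15. An intensity above 200 left 7 on GD26 and 3 on GD50, and no filter gave 16 of all 66 on GD50. The filter itself kept 16 of the 66 at 100 in at least 6 arrays and 14 at 200 in at least 3 arrays.

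Leaving out 1 array gave 9 to 12, 5 to 8, 13 to 17 and 4 to 6 calls for the 4 comparisons within breeds in the order above, 10 to 12 and 1 to 4 for the breed differences in the changes, and 2 to 5, 10 to 13 and 6 to 8 for the 3 days. The breed difference from GD26 to GD50 fell to 1 without Meishan GD50 replicate 2 and was 4 without Yorkshire GD26 replicate 1 or any one Yorkshire GD50 array, and that on GD15 was 5 without Yorkshire GD15 replicate 1. With the replicate number as a block, limma gave 5 calls instead of 6 for Meishan GD50 versus GD26, with CXCR4 lost (adjusted p = 0.0694), and 4 instead of 2 for the breed difference from GD26 to GD50. In the other comparisons within breeds, the block gave 11 instead of 12 in Meishan and 16 in Yorkshire for GD26 versus GD15, and 7 instead of 6 for Yorkshire GD50 versus GD26. Low signal limits what can be read for the 46 probe sets under the filter.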
